A study of Sus scrofa with 6 samples.

Results

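The genes of the mitochondrial respiratory chain and of ATP synthase were examined in OBGF400 and PK15 cells. Members were the genes whose symbol in the array's annotation began with NDUF, SDHA, SDHB, SDHC, SDHD, UQCR, ATP5 or COX followed by a digit, together with CYC1. The rule used symbols and no measured value. It found 65 of 6765 genes, measured by 84 probe sets. Of these, 32 encode subunits of complex I, 4 of complex II, 2 of complex III, 8 of complex IV, 14 belong to complex V (ATP synthase) and 5 encode assembly factors. CYC1 and the mitochondrially encoded subunits were not analysed here.

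OBGF400 is a pig line of olfactory bulb neuroblast origin, and PK15 is a pig kidney line that the labels call epithelial and non-neuronal. Neither line was treated. For each line, RNA of 9 cultures was combined into 3 pools, each hybridised to 1 Affymetrix porcine array, so the groups were 3 OBGF400 arrays and 3 PK15 arrays. OBGF400 grew in DMEM/F12/HAM and PK15 in minimum essential medium with amphotericin B, both with 10% bovine calf serum and the same 3 antibacterial drugs, so medium, line and any handling batch cannot be told apart. Each group is 1 line, and p-values measure the spread between pools of that line.

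The respiratory chain sits in the inner mitochondrial membrane. Complex I takes electrons from NADH and complex II from succinate, ubiquinone carries them to complex III, cytochrome c carries them to complex IV, and complex IV reduces oxygen. Complexes I, III and IV pump protons, and complex V lets the protons flow back through its rotating c ring and makes ATP. Apart from complex II, each complex joins nuclear with mitochondrially encoded subunits, and differentiated neurons and kidney tubule cells are known for a high demand for its ATP.

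Values are log2 signals per probe set as deposited, and a difference is OBGF400 minus PK15. All 6 arrays shared a floor of 2.13, and levels of different genes are not comparable on this platform. Arrays of a line correlated at 0.996 to 0.998 across probe sets, against 0.860 to 0.865 between lines. The marker lists separated the lines. All 8 epithelial markers were lower in OBGF400, where their mean log2 level was 2.33 to 2.41, against 13.40 to 13.47 in PK15. In OBGF400, 6 of 7 mesenchymal markers were higher (mean level 11.24 to 11.33, against 2.51 to 2.56 in PK15), as were 4 of 4 smooth muscle markers (14.58 to 14.67, against 4.24 to 5.00 in PK15). Of 8 neuronal markers, UCHL1, MAP2 and NCAM1 were higher in OBGF400 and STMN1 lower, while NEFL, GAP43, SNAP25 and SYT1 lay at the floor in both lines. The mean level of the neuronal list was 6.10 to 6.14 in OBGF400, against 3.56 to 3.64 in PK15. Of 3 glial markers 2 were lower and 1 was not called (2.37 to 2.77, against 5.83 to 6.04 in PK15), and of 5 leukocyte markers 1 was higher, 3 lower and 1 not called (2.93 to 3.01, against 7 to 7.09 in PK15). The part of these marker differences in the results below was not tested.

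Most respiratory chain and ATP synthase genes had lower signals in OBGF400 than in PK15. Of the 65 genes, 51 were lower and 5 higher in OBGF400, and 9 were not called (limma, Benjamini-Hochberg adjusted p under 0.05 over all genes). Over all 6765 genes, 36.8% were called lower and 23.9% higher. Among the 3382 genes above the median signal, where most members lie, 50.1% were called lower and 31.3% higher, and of the 59 members in that range 48 were lower and 4 higher. In RNA of a whole culture, fewer cells that carry a transcript and less of it per cell cannot be told apart.

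The differences were moderate and the arrays tight. The median member differed by -0.96, a 1.94-fold lower signal, with quartiles of -1.29 and -0.30, while the median over all genes was -0.002. Among genes above the median signal, the median was -0.27 over all 3382 and -0.96 over the 59 members. The 3 OBGF400 arrays lay below the 3 PK15 arrays for 54 of the 65 genes (40.1% of all genes), above them for 5 (26.8% of all genes), and overlapped with them for 6. Among the 3382 genes above the median signal they lay below for 1791 and above for 1140. For the 59 members in that range these counts were 51 and 4. Called falls of at least 2-fold were found for 31 members (22.0% of all genes), and called rises of at least 2-fold for 2 members, COX7A1 and ATP5E (13.8% of all genes). Above the median signal such falls were found for 844 of the 3382 genes and 28 of the 59 members. Such rises were found there for 510 genes and 1 member. The median SD between arrays was 0.055 for OBGF400 and 0.135 for PK15 over the members. PK15 replicate 2 was the highest PK15 array for 49 of the 64 members that varied (76.6%), against 44.5% of all genes that varied. Without that array, 49 members were lower and 5 higher, and the median difference was -0.88.

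**Figure D1:**
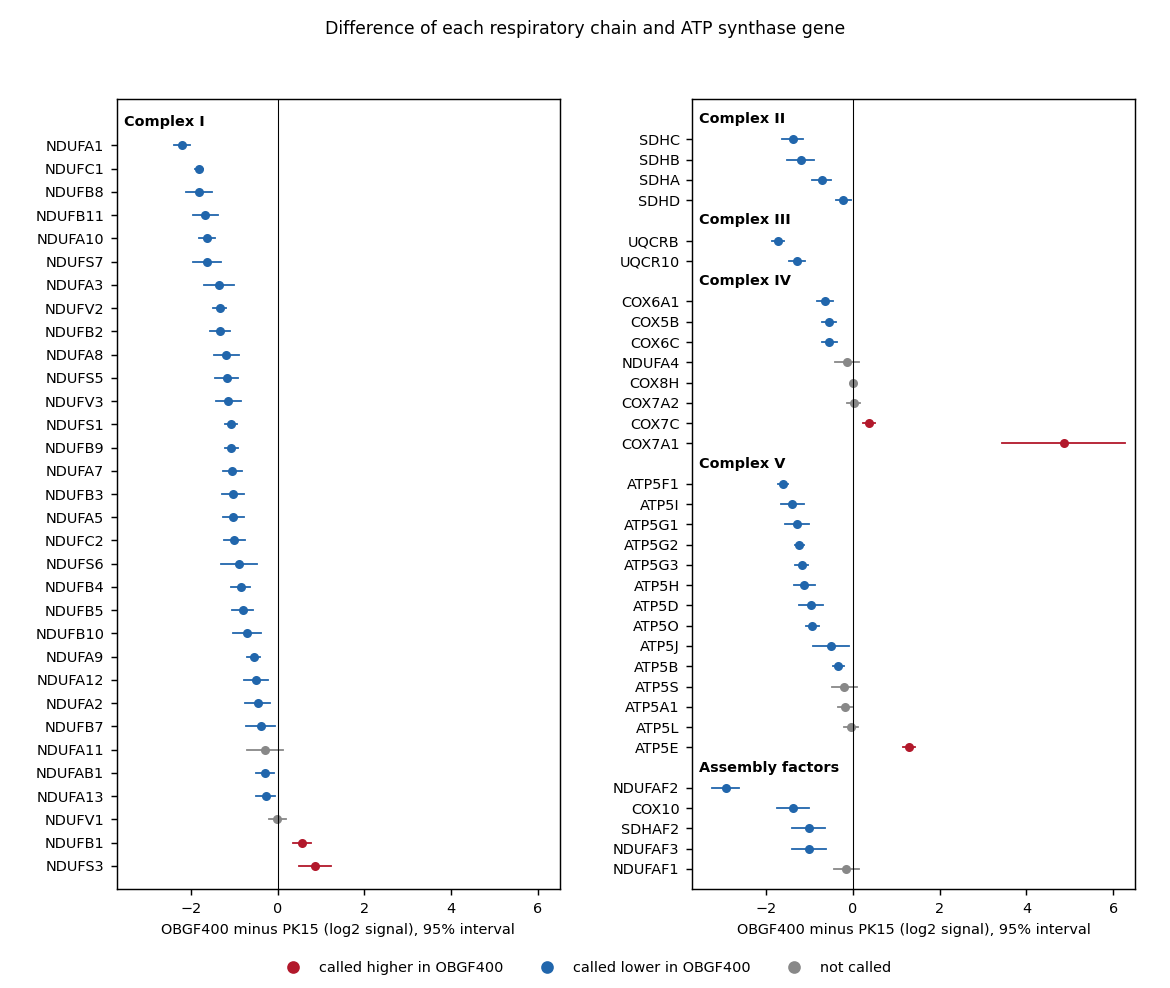
Difference between OBGF400 and PK15 for each of the 65 genes, by complex (x axis, log2 signal; points are differences, bars 95% intervals from limma, not adjusted for the number of genes). Most points lie left of 0, those of complex IV cluster around 0, and COX7A1 lies far to the right at 4.86.

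The size of these differences depends on how the arrays are scaled, so each is best read against the median of all genes. That median takes in genes at the floor. Without probe sets below the median signal it was -0.25, and the members' median differed from it by -0.73. Spiked hybridization controls were 0.82 lower in OBGF400 than in PK15 and the dap and thr poly-A controls 0.85 higher. Hybridization control scaling moved the median of all genes to 0.82 and the members' median to -0.14, with 22 members lower and 20 higher, against 18.6% of all genes lower and 66.3% higher. Poly-A control scaling moved the median of all genes to -0.86 and that of the members to -1.81, with 61 lower and 2 higher, against 77.1% of all genes lower and 11.3% higher. The members' median stayed 0.96 below the median of all genes under both, since each array moves by a constant. Genes at the floor in both lines move by that constant too and can be called through it alone. They were 1047 of the 6765 genes but 1 of the 65 members, so under these scalings the shares over all genes are not a like measure. Called lower as deposited and under both control scalings were 22 members, namely 11 of complex I, SDHC, SDHB, UQCRB, UQCR10, ATP5F1, ATP5I, the 3 c ring genes, NDUFAF2 and COX10. Called higher under all 3 were COX7A1 and ATP5E. Poly-A control scaling moves every difference down and hybridization control scaling moves it up, so these are not separate checks. The 22 are simply all members lower under hybridization control scaling, and the 2 all members higher under poly-A control scaling. Probe sets of 28S and 18S rRNA differed by 1.07 and -0.12, 5′ and 3′ probe sets of actin by 0.62 and 0.05, and 5′ and 3′ probe sets of GAPDH by -0.29 and -0.41. The part of RNA quality in the results was not tested.

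Complex IV stood near the median of all genes, and the other complexes below it. The median difference was -1.02 for complex I, -0.96 for complex II, -1.51 for the pair of complex III genes, -0.07 for complex IV and -0.94 for complex V. Called lower were 28 of 32 complex I genes, 4 of 4 in complex II, 2 of 2 in complex III, 3 of 8 in complex IV and 10 of 14 in complex V. Called higher were 2 genes in complex I, 0 in complexes II and III, 2 in complex IV and 1 in complex V. The complex IV shares, 3 and 2 of 8, lie near the 36.8% and 23.9% of all genes called lower and higher. Among genes above the median signal 50.1% were called lower and 31.3% higher. Without probe sets below the median signal, the complex IV median was -0.13 and that of all genes -0.25. These 8 genes do not cover the complex. COX6B is not among them, because its probe set also carries the symbol ZBTB32, and that probe set differed by -0.72. Under hybridization control scaling 11 complex I genes were lower and 8 higher, 2 of complex II lower and 1 higher, 2 of complex III lower, 0 of complex IV lower and 5 higher, and 5 of complex V lower and 5 higher. COX8H, which lay at the floor in both lines, is among those 5 only through the shift of its array values. It also counts in the complex IV median, which was -0.13 without flat probe sets. With each gene centred on its own mean, the complex I median was -0.45, -0.50 and -0.53 on the OBGF400 arrays and 0.52, 0.61 and 0.42 on the PK15 arrays. The complex IV median was 0.00, -0.05 and -0.06 on the OBGF400 arrays and 0.08, 0.13 and -0.05 on the PK15 arrays. By these medians the lines were far apart for complex I and overlapped for complex IV. Single complex IV genes still separated the lines. The OBGF400 arrays all lay below the PK15 arrays for 3 of the 8 and above them for 2, against 40.1% and 26.8% of all genes. Among the 3382 genes above the median signal they lay below for 1791 and above for 1140. No test of the difference between complexes was made, because genes of a complex are not replicates.

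**Figure D2:**
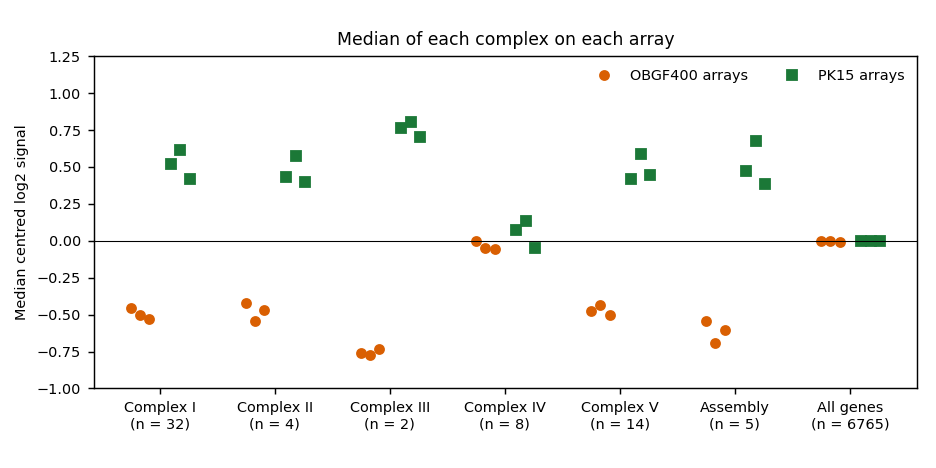
Median over the genes of each complex on each array (y axis, log2 signal centred on each gene's mean over the 6 arrays; circles OBGF400, squares PK15; n is the number of genes). The OBGF400 medians lie below the PK15 medians in complexes I, II, III and V and overlap with them in complex IV.

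**Figure D3:**
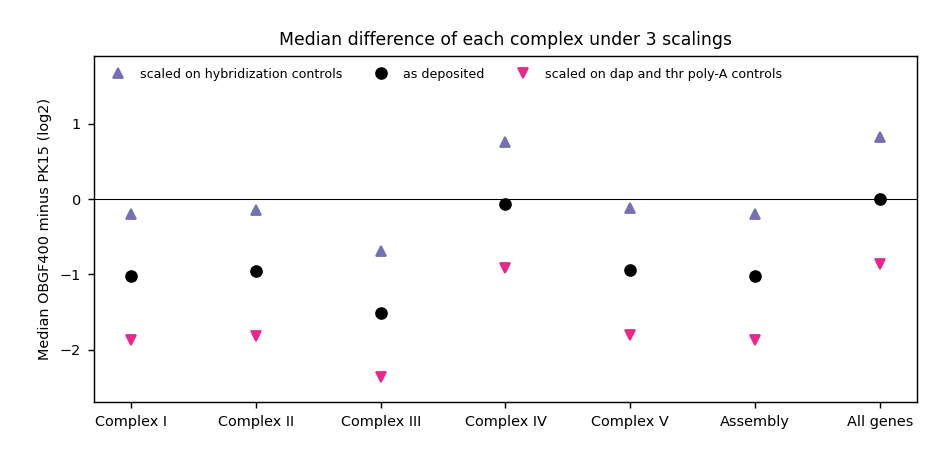
Median difference between OBGF400 and PK15 by complex and over all genes (y axis, log2) under 3 scalings of the arrays. The scalings move all medians together, so the gap between complex IV and the other complexes is the same in each, while the sign of a median near 0 is not.

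Of 19 complex I genes of the membrane arm, which holds the proton-pumping part, 17 were called lower, and the median was -1.06. Over all genes 36.8% were called lower, and 50.1% of those above the median signal. The 4 most negative called differences in complex I all belonged to this arm. NDUFA1, a small subunit needed for assembly, gave 10.60, 10.46 and 10.58 on the OBGF400 arrays against 12.78, 12.85 and 12.65 on the PK15 arrays. That is a difference of -2.21, or a 4.62-fold lower signal (95% interval -2.40 to -2.02, adjusted p = 2.67e-05), with a gap between the lines far wider than their spread. NDUFC1 gave 10.46, 10.38 and 10.42 in OBGF400 against 12.24, 12.27 and 12.17 in PK15, a difference of -1.81 (adjusted p = 5.94e-06). NDUFB8, often used as a protein marker of complex I, gave 11.30, 11.30 and 11.21 in OBGF400 against 12.97, 13.30 and 12.94 in PK15, a difference of -1.80 (adjusted p = 0.000192). NDUFB11, another small membrane arm subunit, averaged 9.55 ± 0.06 in OBGF400 against 11.21 ± 0.19 in PK15 (SD, n = 3), -1.66 apart. The other called falls in this arm ran from -1.63 for NDUFA10 to -0.28 for NDUFA13, which is also known as a regulator of cell death. The calls of NDUFA13 and of NDUFB7 (-0.39) were lost over the probe sets, and under hybridization control scaling both were called higher, at 0.55 and 0.43. NDUFB9, NDUFB3, NDUFC2, NDUFB4, NDUFB5 and NDUFB10 were not called under that scaling. NDUFAB1, the mitochondrial acyl carrier protein, which sits in both arms, differed by -0.30 (12.25 ± 0.09 against 12.55 ± 0.11 in PK15, SD, n = 3), which became 0.52, called higher, under hybridization control scaling. NDUFA11, which helps to hold complex I together, was not called at 10.94 ± 0.02 in OBGF400 against 11.24 ± 0.29 in PK15 (SD, n = 3), although its arrays did not overlap.

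The matrix arm of complex I carries flavin and iron-sulfur clusters from the NADH site to ubiquinone. Of its 12 genes, 10 were called lower (36.8% of all genes were, and 50.1% of those above the median signal), and the median was -0.96. Under hybridization control scaling only NDUFS7 and NDUFV2 of these 10 were still called lower. NDUFV3, NDUFS1, NDUFA7, NDUFA5, NDUFS6, NDUFA9 and NDUFA12 were then not called, and NDUFA2, at -0.46 as deposited, was called higher. NDUFS7 binds the last iron-sulfur cluster before ubiquinone. It gave 9.37, 9.40 and 9.53 in OBGF400 against 10.99, 11.29 and 10.90 in PK15, a difference of -1.63 (adjusted p = 0.000354). NDUFV2, with an iron-sulfur cluster near the flavin, differed by -1.34 (11.08 ± 0.04 against 12.41 ± 0.09 in PK15, SD, n = 3). NDUFS1, the large subunit with several clusters, differed by -1.07 (10.09 ± 0.04 against 11.16 ± 0.08 in PK15, SD, n = 3). NDUFV1, which binds the flavin and oxidises NADH, was the exception among these electron carriers. Its signals of 9.80, 9.72 and 9.75 in OBGF400 lay within the 9.63, 9.77 and 9.89 of PK15, and its difference was -0.004 with an interval of -0.21 to 0.20. The intervals of NDUFV1 and of its neighbour NDUFV2 did not overlap.

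Complex I had 2 genes called higher in OBGF400. NDUFB1, a small membrane arm subunit, gave 13.38, 13.22 and 13.15 in OBGF400 against 12.70, 12.74 and 12.60 in PK15, a difference of 0.57 (adjusted p = 0.00269) that became -0.29 under poly-A control scaling. NDUFS3, a core subunit of the matrix arm, depended on the probe set. The probe set that stands for the gene gave 11.22, 11.13 and 11.09 in OBGF400 against 10.20, 10.55 and 10.09 in PK15, a difference of 0.86, which became 0.01 under poly-A control scaling. A dimmer probe set had the same sign, with 6.90 ± 0.04 in OBGF400 against 5.89 ± 0.41 in PK15 (SD, n = 3) and thus 1.01 between the lines. The remaining probe set gave 4.74, 4.53 and 4.48 in OBGF400 against 10.23, 10.35 and 10.11 in PK15, a difference of -5.65. All 3 were called over the probe sets (adjusted p of 0.00757, 0.0246 and 1.01e-05), of which 41.9% were called. The direction of NDUFS3 is therefore not settled by these arrays, and the mean of its probe sets gave -1.26.

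**Figure D4:**
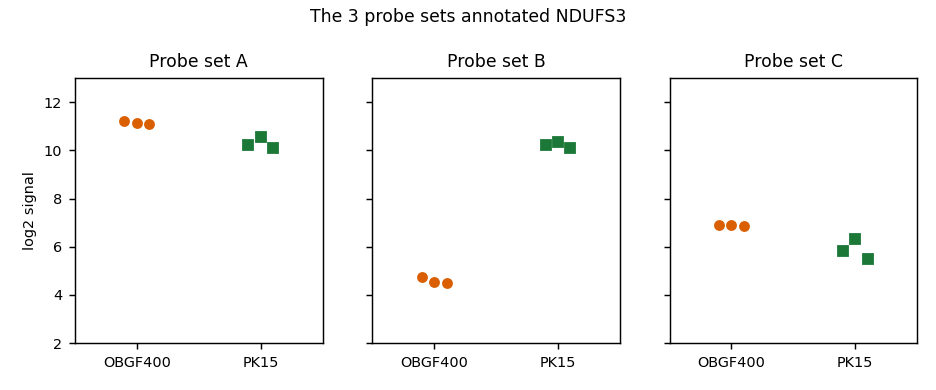
Signals of the 3 probe sets annotated NDUFS3 on each array (y axis, log2 signal; circles OBGF400, squares PK15). Probe set A stands for the gene in the other results. Probe sets A and C are higher in OBGF400, by 0.86 and 1.01, and probe set B is lower, with a difference of -5.65.

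Complex II, or succinate dehydrogenase, is also an enzyme of the citric acid cycle. All 4 of its genes were called lower in OBGF400 (36.8% of all genes were, and 50.1% of those above the median signal). SDHC, a membrane anchor that helps to form the ubiquinone site, gave 9.65, 9.58 and 9.47 in OBGF400 against 11.08, 10.98 and 10.81 in PK15, a difference of -1.39 (adjusted p = 0.000205). SDHB, the iron-sulfur subunit, gave 11.45, 11.45 and 11.52 in OBGF400 against 12.68, 12.87 and 12.45 in PK15, a difference of -1.20 (adjusted p = 0.000832). Its other probe set differed by -2.06, so both pointed down. SDHA, the flavoprotein that oxidises succinate, differed by -0.72 (10.84 ± 0.12 against 11.56 ± 0.09 in PK15, SD, n = 3), while its other probe set, at -0.25, was not called (adjusted p = 0.0780). Under hybridization control scaling SDHA differed by 0.10. SDHD, the other anchor, gave 12.10, 12.20 and 12.07 in OBGF400 against 12.39, 12.41 and 12.22 in PK15, a difference of -0.22 (adjusted p = 0.0454), which became 0.61 under hybridization control scaling. The SDHD call was lost without OBGF400 replicate 1 (-0.20), 2 (-0.25) or 3 (-0.19) and without PK15 replicate 1 (-0.19) or 2 (-0.18), and also over the probe sets.

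Complex III, which passes electrons from ubiquinol to cytochrome c, was represented by 2 small nuclear subunits, and both fell. UQCRB, known as the ubiquinone-binding subunit, gave 12.47, 12.42 and 12.46 in OBGF400 against 14.29, 14.14 and 14.12 in PK15. Its difference of -1.73 is a 3.32-fold lower signal (95% interval -1.87 to -1.59, adjusted p = 2.22e-05). UQCR10 gave 11.37, 11.39 and 11.43 in OBGF400 against 12.60, 12.83 and 12.64 in PK15, a difference of -1.30 (adjusted p = 0.000127). With 2 genes the median of complex III says little about its core subunits.

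Complex IV, cytochrome c oxidase, went both ways. COX6A1, COX5B and COX6C, nuclear subunits around the catalytic core, fell by 0.65, 0.54 and 0.54 on the log2 scale. COX6A1 gave 12.52, 12.51 and 12.48 in OBGF400 against 13.09, 13.30 and 13.08 in PK15 (adjusted p = 0.00113). COX5B, which binds zinc, averaged 13.01 ± 0.03 in OBGF400 and 13.55 ± 0.11 in PK15, and COX6C averaged 13.67 ± 0.02 in OBGF400 and 14.21 ± 0.12 in PK15 (SD, n = 3). These falls were smaller than those of the median complex I gene, and under hybridization control scaling the 3 differences were 0.17, 0.28 and 0.28. NDUFA4, first assigned to complex I and now placed in complex IV, was not called (12.32 ± 0.06 against 12.45 ± 0.18 in PK15, SD, n = 3). Without PK15 replicate 3 it was called lower, at -0.24 (adjusted p = 0.0170).

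The isoforms of subunit VIIa differed in pattern between the lines. COX7A2, the form found in most tissues, gave 13.04, 13.03 and 13.07 in OBGF400 against 13.03, 13.12 and 12.93 in PK15, and its difference was 0.02 with an interval of -0.13 to 0.16. COX7A1, the form of heart and skeletal muscle, gave 7.69, 7.76 and 7.66 in OBGF400 against 2.31, 2.25 and 3.97 in PK15. Its difference of 4.86 (95% interval 3.45 to 6.28, adjusted p = 0.00126) was the largest rise among the members, and the intervals of the isoforms did not overlap. PK15 replicate 3 was the high PK15 array, and without it the difference was 5.43. Since COX7A1 lay near the floor in PK15, its size depends on the scale, and with 32 added to the linear values it was 2.58. The smooth muscle markers given above were higher in OBGF400 as well, and their part in the COX7A1 difference was not tested. COX7C, another small subunit, gave 13.04, 13.01 and 13.02 in OBGF400 against 12.66, 12.74 and 12.54 in PK15, a difference of 0.37 (adjusted p = 0.00388) that became -0.48 under poly-A control scaling. COX8H, the heart form of subunit VIII, named here after its values were seen, gave 2.22 on all 6 arrays, at the floor in both lines.

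**Figure D5:**
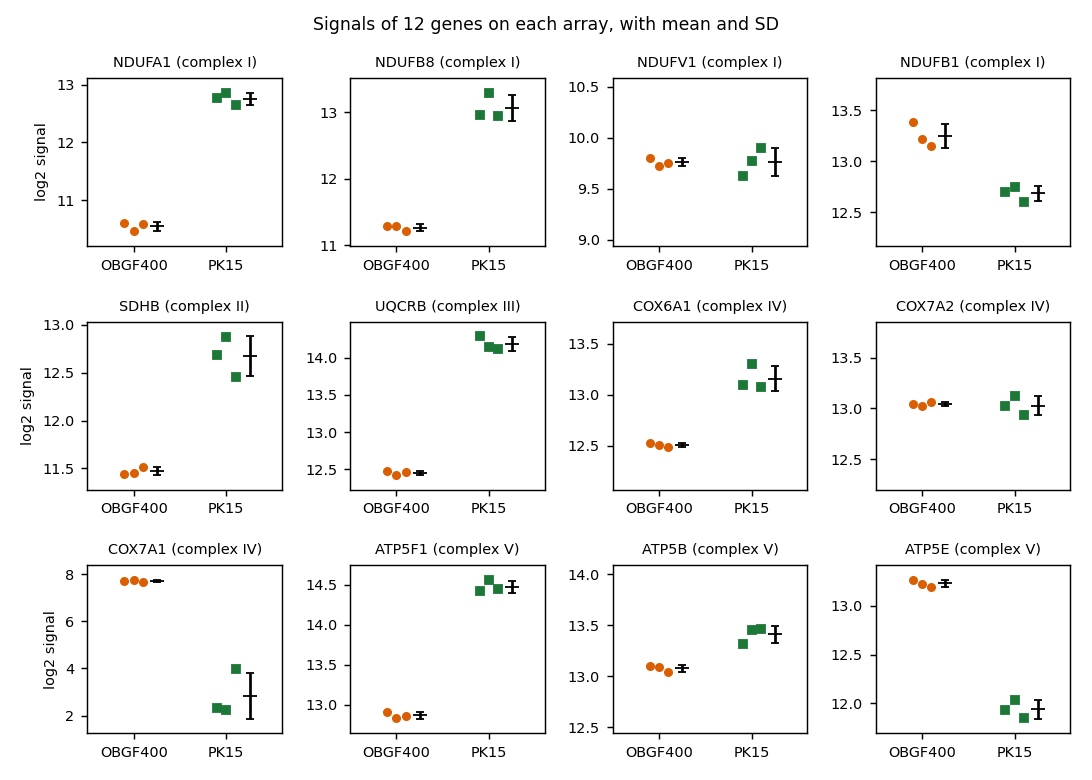
Signals of 12 genes of complexes I to V on each OBGF400 array (circles) and PK15 array (squares), with the mean and SD of each line beside the points (y axis, log2 signal, a separate range for each gene). NDUFV1 and COX7A2 overlap between the lines, NDUFB1, COX7A1 and ATP5E are higher in OBGF400, and the other genes are lower.

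Within ATP synthase, the differences of the catalytic head were smaller than those of the peripheral stalk and the c ring. ATP5B, the catalytic beta subunit, gave 13.10, 13.09 and 13.04 in OBGF400 against 13.32, 13.45 and 13.47 in PK15, a difference of -0.33 (adjusted p = 0.00354) that became 0.49 under hybridization control scaling. ATP5A1, the alpha subunit, gave 13.73, 13.74 and 13.66 in OBGF400 against 13.92, 13.78 and 13.99 in PK15, a difference of -0.19 that missed the threshold (adjusted p = 0.0559). Without PK15 replicate 2 it was -0.24 and passed (adjusted p = 0.0114).

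In the peripheral stalk, which holds the head still against the turning ring, 4 of 4 genes were called lower. Over all genes 36.8% were called lower, and 50.1% of those above the median signal. ATP5F1, its subunit b, gave 12.91, 12.83 and 12.86 in OBGF400 against 14.42, 14.56 and 14.45 in PK15, a difference of -1.61, or a 3.05-fold lower signal (adjusted p = 2.10e-05). ATP5H and ATP5O, the stalk subunits d and OSCP, differed by -1.12 and -0.93, and neither was called under hybridization control scaling. ATP5J, a coupling factor of the stalk, gave 10.67, 10.79 and 10.72 in OBGF400 against 10.90, 11.34 and 11.44 in PK15. Its difference of -0.50 (adjusted p = 0.0483) became 0.32 under hybridization control scaling. Its call was lost without OBGF400 replicate 1 (-0.47), 2 (-0.53) or 3 (-0.50), without PK15 replicate 2 (-0.45) or 3 (-0.39), and over the probe sets.

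The 3 genes ATP5G1, ATP5G2 and ATP5G3 encode the same mature c ring protein behind different import sequences, and they fell by nearly the same amount. ATP5G1 gave 11.21, 11.15 and 11.22 in OBGF400 against 12.35, 12.69 and 12.41 in PK15. ATP5G2 gave 12.04, 12.11 and 12.08 in OBGF400 against 13.26, 13.38 and 13.29 in PK15. ATP5G3 gave 13.22, 13.08 and 13.11 in OBGF400 against 14.31, 14.38 and 14.24 in PK15. The differences were -1.29, -1.24 and -1.17 (adjusted p of 0.000411, 2.78e-05 and 8.83e-05), with overlapping intervals that spanned -1.56 to -1.02 over the 3 genes.

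The 2 central stalk subunits among the members went opposite ways. ATP5E, the epsilon subunit, gave 13.27, 13.23 and 13.20 in OBGF400 against 11.94, 12.03 and 11.84 in PK15. Its difference of 1.29, a 2.45-fold higher signal (95% interval 1.15 to 1.44, adjusted p = 6.13e-05), stayed positive under poly-A control scaling. ATP5D, the delta subunit, which binds epsilon, differed by -0.96 (9.79 ± 0.10 against 10.75 ± 0.16 in PK15, SD, n = 3). Under hybridization control scaling ATP5D differed by -0.14 and was not called. Of the small membrane subunits, ATP5I, subunit e, gave 6.55, 6.26 and 6.41 in OBGF400 against 7.81, 7.90 and 7.69 in PK15, a difference of -1.39 (adjusted p = 0.000287). ATP5L, subunit g, was not called by the probe set used (12.86 ± 0.08 against 12.91 ± 0.08 in PK15, SD, n = 3). Its other 2 probe sets differed by -0.65, called lower, and by 0.38, not called. ATP5S, which the symbol rule takes in although it is no structural subunit, differed by -0.20 and was not called (0.63, called higher, under hybridization control scaling), while its dimmer probe set was called higher by 0.74.

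Assembly factors are needed to build the complexes and are not part of them. Of the 5 among the members, 4 were called lower, against 36.8% of all genes. NDUFAF2, which acts late in complex I assembly, had the most negative difference of all 65 members. It gave 7.02, 6.71 and 6.64 in OBGF400 against 9.63, 9.77 and 9.77 in PK15, a difference of -2.94, or a 7.65-fold lower signal (adjusted p = 5.22e-05). COX10, which makes a precursor of the heme of complex IV, gave 6.82, 6.62 and 6.80 in OBGF400 against 7.91, 8.11 and 8.36 in PK15, a difference of -1.38 (adjusted p = 0.000890). SDHAF2, which helps to attach the flavin to SDHA, and NDUFAF3, an early complex I factor, each differed by -1.02. Under hybridization control scaling these became -0.20 and -0.19, and neither was called. NDUFAF1, which acts in early complex I assembly, was not called (7.54 ± 0.12 against 7.69 ± 0.17 in PK15, SD, n = 3). Hybridization control scaling moved it to 0.68, called higher.

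More than 1 probe set was present for 16 of the 65 genes. NDUFA1, NDUFB3, NDUFV2 and SDHB each had 2 probe sets called lower and 0 called higher, and NDUFS3 alone had called probe sets of opposite sign. The second NDUFA1 probe set differed by -1.67 and the second NDUFB3 probe set by -1.28. For ATP5I, ATP5J, NDUFAF2, NDUFS6 and SDHAF2 the other probe set lay at the floor in both lines and carries no information.

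Genes that serve the respiratory chain from outside the symbol rule had less negative medians, and their counts depended on the scaling. Shares over all genes were 36.8% lower and 23.9% higher as deposited, and 18.6% lower and 66.3% higher under hybridization control scaling. The latter shares take in genes at the floor that move with their arrays. Of 24 measured assembly factors and electron carriers, 19 were lower and 2 higher. The other 3 were not called, and the median was -0.70. Under hybridization control scaling 7 were lower and 10 higher. OMA1, a protease of the inner membrane, differed by -3.06 (6.70 ± 0.08 against 9.75 ± 0.08 in PK15, SD, n = 3), and TACO1, a translational activator of a mitochondrially encoded complex IV subunit, by -2.54. GPD2, the mitochondrial glycerol phosphate dehydrogenase that feeds electrons to ubiquinone, was higher by 3.03 (8.87 ± 0.27 against 5.84 ± 0.44 in PK15, SD, n = 3). SCO2, a copper chaperone of complex IV, was higher by 0.66, which became -0.20 under poly-A control scaling.

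Of 16 genes of nucleotide exchange and mitochondrial mass, 11 were lower and 1 higher, at a median of -0.60, and under hybridization control scaling 1 was lower and 6 higher. TOMM20, an import receptor of the outer membrane, and CHCHD3, which shapes the cristae, differed by -1.20 (11.11 ± 0.07 against 12.31 ± 0.02 in PK15, SD, n = 3) and -1.14. SLC25A3, the phosphate carrier that supplies ATP synthase, was higher by 0.26, which became -0.60 under poly-A control scaling. Of 21 genes of the citric acid cycle and pyruvate entry, 15 were lower and 1 higher, at a median of -0.59, and under hybridization control scaling 5 were lower and 10 higher. The isocitrate dehydrogenase subunits diverged, with IDH3G at -2.56 and IDH3A at 0.25, or -0.60 for IDH3A under poly-A control scaling. MPC2, of the pyruvate carrier, differed by -2.14. Under hybridization control scaling the medians of these 3 lists became 0.13, 0.22 and 0.24.

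Of 12 genes of mitochondrial biogenesis and transcription, 6 were lower and 2 higher, a share of lower genes like the 50.1% among all genes above the median signal. Under hybridization control scaling 3 were lower and 6 higher, and their median of -0.52 became 0.30. MTERF3, a repressor of mitochondrial transcription, differed by -1.98 (9.28 ± 0.12 against 11.26 ± 0.04 in PK15, SD, n = 3), and the growth factor-responsive MYC by -1.68. EPAS1, an oxygen-regulated transcription factor also called HIF-2α, was higher by 3.96 (11.28 ± 0.11 against 7.33 ± 0.24 in PK15, SD, n = 3), and its relative HIF1A by 1.20. PPARGC1A, a coactivator of mitochondrial biogenesis, lay at the floor in both lines.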

How the data were processed

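The deposited table holds 1 log2 signal per probe set and array. Per the submitters' processing notes the authors used the package affy, but how background was corrected and probes were summarised and normalized is not given in the sources used here. Of 24123 probe sets, 124 controls were left out and 23999 tested. The 10069 probe sets with exactly 1 symbol in the platform annotation gave 6765 genes, each represented by its probe set of highest mean signal across the 6 arrays. All 65 members were found by Entrez number in RefSeq. Lines were compared with limma 3.58.1 (lmFit, eBayes, two-sided) in R 4.3.3 over all genes, and separately over all probe sets, with Benjamini-Hochberg adjustment and a threshold of 0.05. An exact permutation test of 3 arrays against 3 cannot go below p = 0.1, so none was used. At the floor means at most 0.1 above it on each array of the line. The arrays' number limits the precision, and no detection calls were used. The fit was tested on simulated data.

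Named were, in complexes I, III, IV and V and among the assembly factors, the 4 most negative and 2 most positive called members and the brightest uncalled one, all of complex II, called rises, genes with probe sets of opposite sign, paralogue groups, catalytic subunits, and in other lists up to 2 called genes each way. Other members were named for completeness after their values were seen. Members, lists and alternatives were chosen with earlier results of these data known. Shared replicate numbers did not pair the arrays (correlations of deviations 0.007 to 0.039). Tables and figures were prepared in Python 3.11.15.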

Additional observations from a re-analysis of the deposited data

How the results depend on the processing

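The count of lower members stayed within 1.5 times of 51 under every alternative except hybridization control scaling. That scaling gave 22 members lower and 20 higher, and over all genes 1259 lower and 4487 higher. Poly-A control scaling gave 2 members higher, and over all genes 5219 lower and 763 higher. Medians of all members and of complexes I, II, III, IV and V were -0.14, -0.20, -0.14, -0.69, 0.76 and -0.12 under hybridization control scaling, -1.81, -1.88, -1.81, -2.37, -0.92 and -1.80 under poly-A control scaling, and -1.04, -1.10, -1.04, -1.59, -0.14 and -1.02 with median centring. With probe sets of a gene averaged, the medians of all members and of complex V were -0.84 and -0.81, and NDUFS3 differed by -1.26. The gap between the members' median and that of all genes, -0.96 as reported, was -0.86 without probe sets below the 25th percentile, -0.73 without those below the median and -0.77 without flat ones. The control scalings and median centring shift all genes of an array by a constant, so their effect follows from their construction.

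Differences that changed sign under hybridization control scaling were NDUFA11 0.52, NDUFV1 0.82, SDHA 0.10, SDHD 0.61, COX6A1 0.17, COX5B 0.28, COX6C 0.28, NDUFA4 0.69, ATP5J 0.32, ATP5B 0.49, ATP5A1 0.64, ATP5L 0.78 and NDUFAF1 0.68 among the members named by rule, and among the others NDUFB5 0.02, NDUFB10 0.12, NDUFA9 0.27, NDUFA12 0.32, NDUFA2 0.36, NDUFB7 0.43, NDUFAB1 0.52, NDUFA13 0.55 and ATP5S 0.63. Under poly-A control scaling they were NDUFB1 -0.29, COX7A2 -0.84 and COX7C -0.48. The SDHD call was lost with quantile normalization (adjusted p = 0.0515) and without flat probe sets (adjusted p = 0.0551), and that of ATP5J with trended and robust variances (adjusted p = 0.0518). ATP5A1 was called with median centring (-0.27) and without the dimmest probe sets (adjusted p = 0.0453).

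Leaving out 1 array gave 45 to 49 members lower and 5 higher, 2264 to 2441 genes lower and 1471 to 1575 higher, and a member median of -1.03 to -0.88. The medians ranged from -1.07 to -0.97 for complex I, -1.002 to -0.895 for complex II, -1.54 to -1.49 for complex III, -0.14 to -0.04 for complex IV and -0.98 to -0.89 for complex V. The replicate block gave 46 members lower and 5 higher, against 2304 genes lower and 1478 higher, and among the named members it changed the call of ATP5J (adjusted p = 0.0682). The replicate numbers did not pair the arrays, and same-numbered arrays had correlations of 0.039, 0.007 and 0.019.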

Other observations

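Probe sets annotated with several symbols were outside the symbol rule, and 5 of them name a gene of this family. A probe set shared by COX17, the copper carrier for complex IV, and POPDC2 gave 10.32, 10.35 and 10.19 in OBGF400 against 12.39, 12.31 and 12.32 in PK15, a difference of -2.05 with no overlap. A probe set shared by COX6B, a complex IV subunit, and ZBTB32 gave 11.90, 11.87 and 11.79 in OBGF400 against 12.58, 12.67 and 12.48 in PK15, a difference of -0.72. One with the symbol ATP5SL listed for a pair of genes gave 5.45, 6.29 and 6.30 in OBGF400 against 7.49, 7.70 and 7.24 in PK15, a difference of -1.47. The 2 probe sets shared by NDUFAF7, a complex I assembly factor, and PRKD3 differed by 0.15 and by 1.04, the only positive differences among the 5. Which of the annotated genes each signal belongs to was not tested.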
